A study of Homo sapiens with 12 samples.

Results

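ROBO1 and ROBO2 are neighbouring genes on chromosome 3 that encode guidance receptors, and their chromatin was compared in the colorectal adenocarcinoma cell lines SW480 and SW620. ROBO2 occupies chromosome 3 from 75955846 to 77699115 on the plus strand and ROBO1 from 78646388 to 79817059 on the minus strand (hg19), so that their 3′ ends face each other. Members were all enriched regions of the 10 deposited lists that lay within 50 kb of either interval, which gave 118 of 262931 regions: 74 at ROBO1 and 44 at ROBO2. Of these, 109 were SW620 regions and 9 were SW480 regions. The locus was selected on measured values, namely the surplus of SW620-only H3K4me2, H3K27ac and H3K36me3 regions in the window of chromosome 3 from 75 to 80 Mb. The difference between the lines in these 3 marks is therefore a description. H3K4me3 and FOXA2 did not enter that choice.

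ROBO proteins are single-pass membrane receptors of the immunoglobulin superfamily that bind SLIT ligands through their extracellular domains. SLIT-ROBO signalling is best known for repelling growing axons from the midline, and it also acts on cell migration and adhesion outside the nervous system, including in epithelia. Both genes are very long and have alternative promoters far apart, and the SLIT-ROBO pathway has been studied in intestinal stem cells and in colorectal tumours.

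Chromatin immunoprecipitation followed by sequencing was performed on untreated cells of both lines grown in DMEM with serum, with antibodies against 4 histone modifications and the forkhead transcription factor FOXA2. The labels give SW480 as Dukes' type B and SW620 as Dukes' type C. The lines are known to come from the same patient, SW480 from the primary tumour and SW620 from a lymph node metastasis. Each line and antibody had 1 library, so that no difference between the lines has a replicate check and none was tested. H3K4me3 marks promoters, H3K4me2 promoters and enhancers, H3K27ac active promoters and enhancers, and H3K36me3 the bodies of transcribed genes.

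RefSeq (GRCh38.p14) lists 2 promoters for each gene, and their sequences are given to compare the composition of the listed starts, none of which was matched to a region. For ROBO1 they lie at chr3:79767999-79768248 and chr3:79019460-79019709, both on the minus strand. For ROBO2 they lie at chr3:76310630-76310879 and chr3:77039849-77040098, both on the plus strand. The 250 bases before each start are given 5′ to 3′ on the strand of the gene, with every CpG dinucleotide in capitals.
ROBO1 outer start: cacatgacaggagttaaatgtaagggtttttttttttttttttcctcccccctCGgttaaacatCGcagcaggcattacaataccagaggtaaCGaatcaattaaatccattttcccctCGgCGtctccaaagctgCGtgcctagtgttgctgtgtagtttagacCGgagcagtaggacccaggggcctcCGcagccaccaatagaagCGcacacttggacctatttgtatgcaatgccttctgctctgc
ROBO1 inner start: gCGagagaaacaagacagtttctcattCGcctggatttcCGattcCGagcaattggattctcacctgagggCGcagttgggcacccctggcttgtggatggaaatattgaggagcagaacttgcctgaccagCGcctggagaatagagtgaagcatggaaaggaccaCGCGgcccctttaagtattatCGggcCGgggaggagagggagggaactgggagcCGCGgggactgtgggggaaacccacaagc
ROBO2 outer listed start: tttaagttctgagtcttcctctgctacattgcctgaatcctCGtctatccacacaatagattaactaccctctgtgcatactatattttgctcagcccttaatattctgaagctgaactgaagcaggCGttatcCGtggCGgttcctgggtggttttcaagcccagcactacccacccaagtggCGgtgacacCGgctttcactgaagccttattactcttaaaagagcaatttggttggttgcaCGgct
ROBO2 inner start: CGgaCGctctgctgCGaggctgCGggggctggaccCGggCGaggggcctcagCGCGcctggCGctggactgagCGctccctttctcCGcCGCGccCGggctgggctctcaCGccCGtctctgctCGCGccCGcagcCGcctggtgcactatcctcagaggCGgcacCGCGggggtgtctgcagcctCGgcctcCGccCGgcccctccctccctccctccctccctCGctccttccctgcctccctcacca

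The inner ROBO2 promoter stood apart by composition. It held 27 CpG dinucleotides at 76.0% G and C, and 17.7% of the 35116 RefSeq promoters held at least as many in the same length. The inner ROBO1 promoter held 12 CpG at 56.8% G and C, close to the median of 11 over all promoters. The outer ROBO1 promoter held 9 at 48.0%, and the outer listed ROBO2 promoter 7 at 46.8%. The forkhead core TGTTTAC, searched on both strands, was in none of these 4 windows and in 2.98% of all promoters.

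Libraries had between 12791745 and 47867295 tags. The SW620 H3K27ac library was deeper than that of SW480, with 47867295 against 34224728 tags, and had fewer of its tags in regions, 27.51% against 58.51%. For H3K36me3 the depths were 46006580 tags in SW620 and 37446361 in SW480. The tag threshold of the caller was higher in SW620 for both marks, at 48 against 36 tags for H3K27ac and 46 against 38 for H3K36me3, per the file headers. The part of these differences in the results was not tested. A list gives position and width only. A site marked in few cells and a site marked weakly in all of them cannot be told apart, and a site missing from a list may lie just under the threshold.

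ROBO1 had 1 promoter mark in either line and, in SW620 alone, a marked gene body. Each SW480 list held at most 1 ROBO1 region, and the SW620 lists held up to 29. The SW480 list had 1 region each of H3K4me3, H3K4me2 and H3K27ac, all at the same place, and none of H3K36me3 or FOXA2. In SW620 there were 1 H3K4me3, 18 H3K4me2, 18 H3K27ac, 29 H3K36me3 and 5 FOXA2 regions. Those of ROBO2 numbered 2 H3K4me3, 2 H3K4me2, 1 H3K27ac and 1 FOXA2 regions in SW480, and 3, 15, 17 and 3 in SW620. H3K36me3 had no ROBO2 region in either line.

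**Figure D1:**
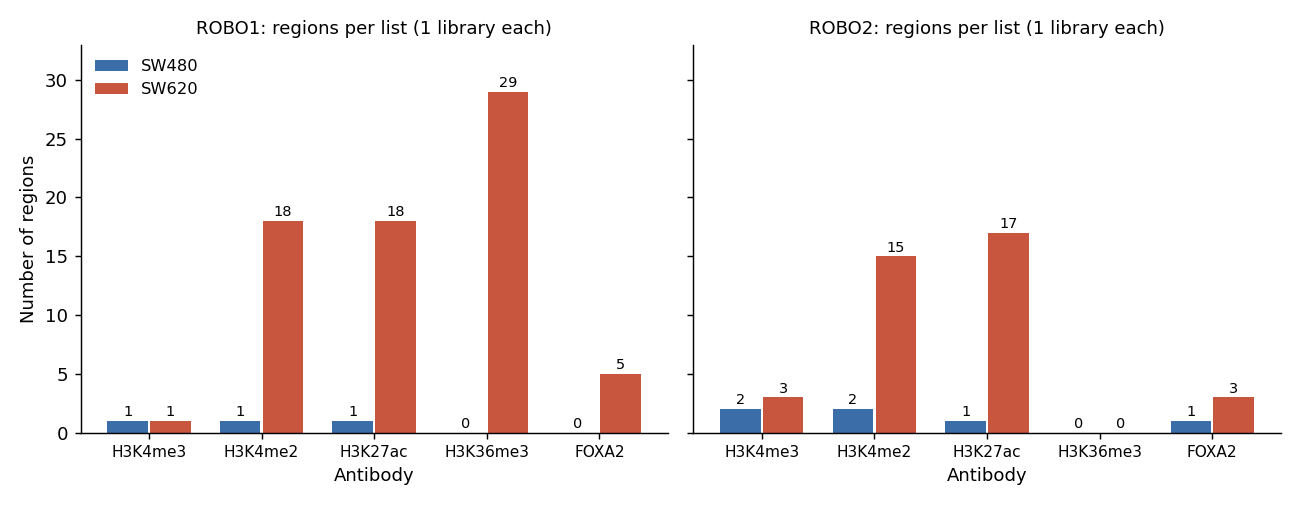
Number of regions (y axis) per antibody (x axis) at ROBO1 on the left and ROBO2 on the right, with SW480 in blue and SW620 in red, 1 library per bar and no error bars. Each SW480 bar stands at 2 or lower, H3K4me3 differs by at most 1 region between the lines, and H3K36me3 stands at 29 in SW620 at ROBO1 and at 0 elsewhere.

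The promoter mark at ROBO1 was common to the lines. In SW480 the H3K4me3 region ran from 79066820 to 79070182 (3363 bp) and in SW620 from 79064111 to 79070483 (6373 bp). The SW620 region covered 100% of the SW480 region and was 1.90 times as wide. It reached 301 bp further upstream and 2709 bp further into the transcribed side. Of its own list, 0.650% of H3K4me3 regions were at least as wide in SW620, and 12.1% in SW480. Neither ROBO1 H3K4me3 region was line-only, a class that held 17.1% of the SW480 and 6.85% of the SW620 H3K4me3 list.

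Acetylation and H3K4me2 lay on the same promoter in both lines. H3K27ac ran from 79066989 to 79070159 (3171 bp) in SW480 and from 79066459 to 79070717 (4259 bp) in SW620. H3K4me2 ran from 79065157 to 79069277 (4121 bp) in SW480 and from 79061095 to 79070043 (8949 bp) in SW620. The SW620 region was among the widest of its list, of which 0.601% were at least as wide. The promoter mark inside ROBO1 thus came with all 3 marks in SW480 as well, the line in which nothing else of the gene was marked.

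This marked promoter lay far inside the gene. Measured from the 5′ end of the interval, the H3K4me3 region lay 746.9 to 750.2 kb downstream in SW480 and 746.6 to 752.9 kb downstream in SW620. The ROBO1 starts in RefSeq lie 748.5 kb apart in GRCh38. The RefSeq starts were not placed on hg19, so these are distances within each build and no region is assigned to a start. RefSeq also lists 1 long noncoding RNA gene, LOC101927374, the microRNA gene MIR3923 and 2 pseudogenes inside ROBO1. None of these genes was matched to the promoter mark, so whether it belongs to ROBO1 or to 1 of them was not determined. No region of any list lay within the first 470.4 kb of the interval in either line, where a FOXA2 peak of SW620 was the first.

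Downstream of the promoter, the ROBO1 body held a dense group of acetylated regions in SW620. Of the 18 H3K27ac regions, 17 had no H3K4me3, and all 17 were SW620-only. Over the whole list, 26.8% of SW620 H3K27ac regions were SW620-only, and 59.8% of those without H3K4me3. As the locus was selected on this contrast, nothing is read from these shares. The 17 regions were 1001 to 6101 bp wide with a median of 2305 bp, where all SW620 H3K27ac regions without H3K4me3 had a median of 1777 bp. With the flanks, ROBO1 held 14.2 H3K27ac regions per Mb in SW620, against 7.41 over the whole list, and 0.787 in SW480, against 7.83.

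When regions within 12.5 kb were joined, a distance chosen after the data were seen, 16 of the 17 formed a single cluster. It ran from 78882182 to 78969763, spanned 87.6 kb and lay 847.3 to 934.9 kb from the 5′ end, between the marked promoter and the 3′ end. Its length rests on that distance: joined within 5 kb, the longest ROBO1 cluster spanned 27 kb and ROBO1 had 5 clusters in place of 3. Acetylated regions covered 42.2 kb of it, or 48.2%. The remaining distal region, from 78777100 to 78780818 (3719 bp), lay 1036.2 to 1040.0 kb from the 5′ end. No SW480 region of any of the 5 antibodies lay in the cluster.

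The widest acetylated regions of the ROBO1 body were spread over the cluster. The widest ran from 78893281 to 78899381 (6101 bp), and 3.07% of the SW620 H3K27ac list was at least as wide. The next were those from 78959192 to 78963438 (4247 bp), from 78954100 to 78958260 (4161 bp), from 78927148 to 78931112 (3965 bp) and from 78920178 to 78923912 (3735 bp). All 5 stood on H3K4me2 of SW620. None overlapped an SW480 region of either mark.

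H3K4me2 had 17 SW620 regions without H3K4me3 at ROBO1, and all 17 were SW620-only, where 30.2% of the whole SW620 H3K4me2 list and 52.2% of its part without H3K4me3 were. They were narrow, 1001 to 2889 bp with a median of 1295 bp. The widest ran from 78929135 to 78932023 (2889 bp), followed by those from 78906859 to 78909165 (2307 bp), 78960304 to 78962390 (2087 bp), 78921786 to 78923406 (1621 bp) and 78777705 to 78779313 (1609 bp). Of the 17 acetylated regions without H3K4me3, 13 overlapped H3K4me2 of SW620, a share close to the 78.8% of the whole class. Conversely, 15 of the 17 H3K4me2 regions overlapped H3K27ac. The share in this direction over all SW620 H3K4me2 regions without H3K4me3 was not computed. Both marks entered the choice of the locus, so nothing is read from the 15.

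Joined within 1 kb, the regions of the 3 active marks in both lines gave 16 elements at ROBO1. The promoter element, from 79061095 to 79070717, was marked in both lines. The other 15 were marked in SW620 alone: 11 with H3K4me2 and H3K27ac, 2 with H3K27ac and 2 with H3K4me2. The longest of them, from 78954100 to 78963438 (9339 bp), carried 8408 bp of H3K27ac. An element from 78933326 to 78939935 (6610 bp) carried 4837 bp and that from 78926649 to 78932023 (5375 bp) carried 3965 bp. No share of elements marked in 1 line alone was computed over the whole lists. SW620-only H3K4me2 and H3K27ac regions entered the choice of the locus, so nothing is read from the count of 15.

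**Figure D2:**
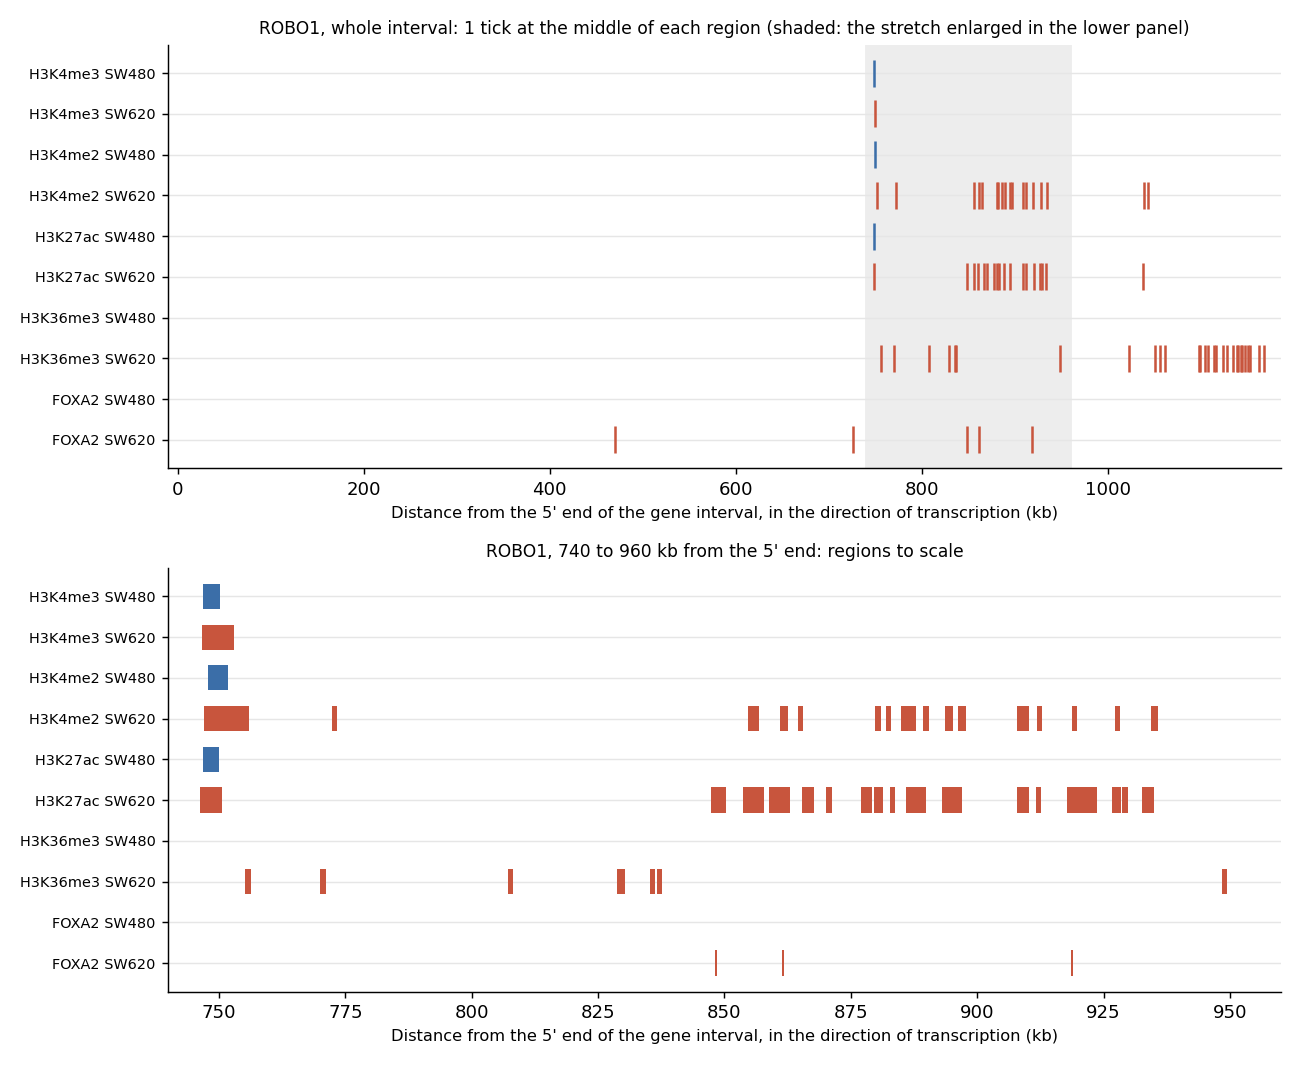
Regions at ROBO1 by antibody and line (rows, SW480 in blue and SW620 in red) against distance from the 5′ end of the gene interval in kb, as 1 tick per region over the whole gene (top) and to scale in the shaded stretch (bottom). Both lines have promoter marks near 748.5 kb, and SW620 alone has the acetylated group from 847.3 to 934.9 kb, with H3K36me3 on either side of it.

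H3K36me3, the mark of transcribed bodies, was present at ROBO1 in SW620 alone. There were 29 regions from 78647309 to 79061928, and no SW480 H3K36me3 region lay within 50 kb of the gene. All 29 were SW620-only, where 27.9% of the whole SW620 list was. All 29 also lay past the promoter H3K4me3 region in the direction of transcription, and the last reached to within 921 bp of the 3′ end of the interval. They covered 56.4 kb, which is 4.82% of the gene interval.

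The cover of H3K36me3 was concentrated at the 3′ end of ROBO1. The interval was divided into 10 equal bins of 117 kb, numbered from the 5′ end. Of the 29 regions, 20 had their middle in bin 10, where 35.7% of the sequence was covered. Bin 9 was covered to 6.69%, bin 8 to 3.02% and bin 7, which holds the marked promoter, to 2.78%. Bins 1 to 6 held none. Widths ran from 1001 to 6163 bp with a median of 1583 bp, and 9 regions were at the minimum of 1001 bp. The widest lay from 78705977 to 78712139 (6163 bp), from 78791765 to 78796259 (4495 bp) and from 78647309 to 78650803 (3495 bp).

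None of the 29 ROBO1 H3K36me3 regions overlapped SW620 H3K27ac, where 7.28% of the whole SW620 H3K36me3 list did. At that share few of 29 regions would overlap, and the difference was not tested. SW620 H3K4me2 overlapped 1 of the 29. A stretch of 111 kb, from the region that ended at 78868560 to that which began at 78979452, held no H3K36me3. The acetylated cluster lay inside this stretch. On its 3′ side were 23 H3K36me3 regions and on its 5′ side 6.

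**Figure D3:**
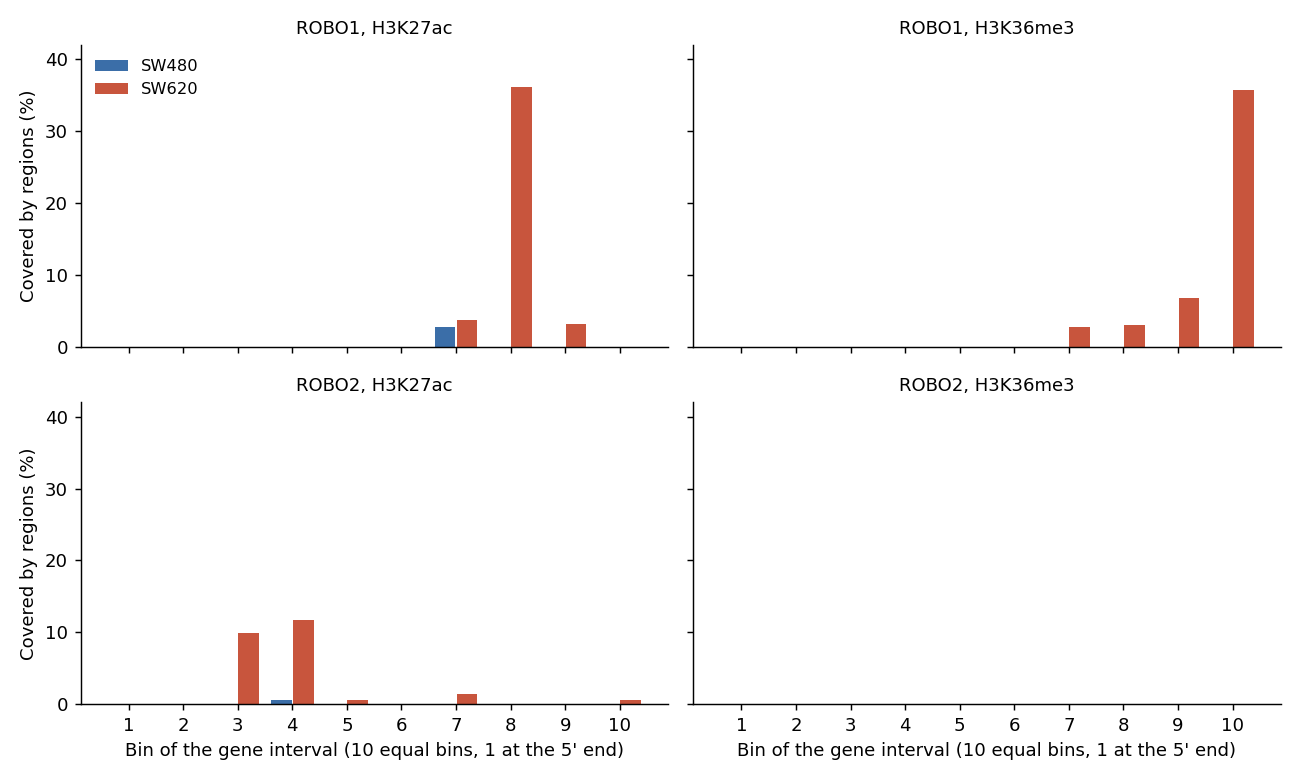
Percentage of sequence covered by H3K27ac regions (left) and H3K36me3 regions (right) in 10 equal bins of the ROBO1 (top) and ROBO2 (bottom) intervals, numbered from the 5′ end (x axis), with SW480 in blue and SW620 in red, 1 library each. In SW620, ROBO1 acetylation is highest in bin 8 at 36.1% and H3K36me3 in bin 10 at 35.7%, while ROBO2 has most of its acetylation in bins 3 and 4 and no H3K36me3.

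FOXA2 is a pioneer factor of endoderm that can bind closed chromatin. SW620 had 5 FOXA2 peaks at ROBO1 and SW480 had none, from lists of 12372 and 5207 peaks. The SW480 FOXA2 library had 0.59% of its tags in peaks, against 2.25% in SW620, and the peak sizes were 126 and 318 bp. The part of this in the FOXA2 counts of either gene was not tested. With equal numbers of peaks from both lines, SW620 had 2 at ROBO1. All 5 were SW620-only, as was 98.1% of the whole list. In the acetylated cluster lay 3 of them, from 78898117 to 78898435, from 78955365 to 78955683 and from 78968570 to 78968888. These 3 of 5 peaks were on H3K27ac, where 33.9% of all SW620 peaks were, and the first 2 were also on H3K4me2, where 51.7% were. A count of 5 peaks is too small to set apart from these shares. SW620-only regions of both marks also entered the choice of the locus. The other peaks, from 79090929 to 79091247 and from 79346361 to 79346679, lay upstream of the marked promoter on no histone region of either line. Of the 17 acetylated regions without H3K4me3, 3 held a peak, and over the whole class 27.9% did.

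ROBO2 also had a promoter region common to the lines, but acetylation there was found in SW620 alone. H3K4me3 ran from 77087916 to 77089488 (1573 bp) in SW480 and from 77087910 to 77090440 (2531 bp) in SW620. The upstream edges differed by 6 bp, and the SW620 region reached 952 bp further downstream. H3K4me2 ran from 77088139 to 77090545 (2407 bp) in SW480 and from 77088055 to 77091775 (3721 bp) in SW620. H3K27ac ran from 77087263 to 77089789 (2527 bp) in SW620, and SW480 had no H3K27ac region there. The width of the SW480 H3K4me3 region was ordinary for its list, of which 68.6% were at least as wide, against 34.1% for SW620.

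SW620 had 2 more H3K4me3 regions in ROBO2 that were not called in SW480. The first ran from 76359562 to 76362744 (3183 bp), with 14.6% of its list at least as wide, and carried H3K4me2 and a H3K27ac region of 4907 bp from 76358651 to 76363557. The other ran from 76584279 to 76585847 (1569 bp) within a H3K4me2 region of 6229 bp, from 76580545 to 76586773, and a H3K27ac region of 8907 bp, from 76581517 to 76590423. Of the SW620 H3K27ac list, 1.05% was at least that wide. Thus 2 of 3 ROBO2 H3K4me3 regions were SW620-only, where 6.85% of the whole SW620 H3K4me3 list was. The share rests on 3 regions of 1 library. Both SW620-only regions overlapped SW620-only H3K27ac and H3K4me2 regions, marks on which the locus was selected, so nothing is read from this share.

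The spacing of these promoter marks was set beside that of the RefSeq starts. The ROBO2 starts listed in RefSeq lie 729.2 kb apart in GRCh38. In hg19, the first and the last SW620 H3K4me3 regions lay 725.2 kb apart between their inner edges and 730.9 kb between their outer edges. The middle one lay 628.4 to 630.0 kb from the 5′ end. No region is assigned to a start from these distances. RefSeq also lists 2 long noncoding RNA genes, LOC102724949 and LOC124900544, and 3 pseudogenes inside ROBO2, and a promoter mark may belong to any of these genes.

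SW480 had an H3K4me3 region in ROBO2 that was not called in SW620. It ran from 76673008 to 76674008 (1001 bp), the minimum width, and was overlapped by an H3K4me2 region of the same width, from 76673464 to 76674464. No acetylation lay on it. Of the SW480 regions, 1 of 2 H3K4me3 and 1 of 2 H3K4me2 were thus SW480-only. Over the whole SW480 lists, 17.1% of H3K4me3 and 23.2% of H3K4me2 regions were. Each count rests on 2 regions of 1 library, too few to set apart from these shares. The single SW480 H3K27ac region of ROBO2, from 76610411 to 76611411 (1001 bp), overlapped 2 SW620 regions, and 32.0% of its list was SW480-only.

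Most of the distal acetylation of ROBO2 lay upstream of the common promoter. Of 17 SW620 H3K27ac regions, 14 had no H3K4me3, and 12 of these were SW620-only, where 59.8% of the whole class without H3K4me3 was. As at ROBO1, nothing is read from these shares. The 14 regions were 1001 to 3595 bp wide with a median of 1808 bp. Of all 17, 14 had their middle in bins 3 and 4 of 10 equal bins of 174 kb, in which 9.86% and 11.7% of the sequence was acetylated. The widest without H3K4me3 ran from 76576916 to 76580510 (3595 bp), from 76473428 to 76476656 (3229 bp), from 76476693 to 76478979 (2287 bp), from 76411033 to 76413315 (2283 bp) and from 76400585 to 76402675 (2091 bp). None of these 5 was called in SW480.

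The ROBO2 acetylation was more scattered than that of ROBO1. Joined within 12.5 kb, the 17 regions gave 8 clusters, the longest of which spanned 24.6 kb from 76565838 to 76590423. The longest spanned 13.5 kb when joined within 5 kb and 54.2 kb within 25 kb. The median gap between neighbouring H3K27ac regions without H3K4me3 was 8.36 kb at ROBO2 and 2.55 kb at ROBO1. H3K4me2 lay on 7 of the 14 regions without H3K4me3 at ROBO2, against 13 of 17 at ROBO1. Over the whole class it lay on 78.8%, which is close to the share at ROBO1. The difference between the genes was not tested.

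H3K4me2 had 11 SW620 regions without H3K4me3 at ROBO2, of 1001 to 1921 bp. All 11 were SW620-only, where 52.2% of the whole class was, a contrast that entered the choice of the locus. The widest ran from 76411250 to 76413170 (1921 bp), 76400859 to 76402457 (1599 bp), 76578293 to 76579821 (1529 bp), 76477518 to 76478888 (1371 bp) and 76746588 to 76747850 (1263 bp). Downstream of the common promoter, the regions from 77308300 to 77309300 and from 77525574 to 77526832 carried no H3K27ac. A region from 77697873 to 77698873, close to the 3′ end, overlapped an H3K27ac region from 77697065 to 77698065, the only one downstream of that promoter.

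Joined within 1 kb, the active marks of both lines gave 18 elements at ROBO2. In SW480, 15 of them had no mark, and in SW620 1 had none. Of the SW620 elements, 3 carried all 3 marks, 6 H3K4me2 and H3K27ac, 4 H3K27ac and 4 H3K4me2. The longest, from 76576916 to 76590423 (13508 bp), carried 12502 bp of H3K27ac. It was followed by those from 76473428 to 76478979 (5552 bp) with 5516 bp, from 76358467 to 76363970 (5504 bp) with 4907 bp and from 76411033 to 76415575 (4543 bp) with 3570 bp. An element from 76609187 to 76612338 carried 3016 bp of H3K27ac in SW620 and 1001 bp in SW480, and was the only acetylated ROBO2 element that both lines shared. As at ROBO1, the element counts have no share over the whole lists beside them, and nothing is read from those without a mark in SW480.

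**Figure D4:**
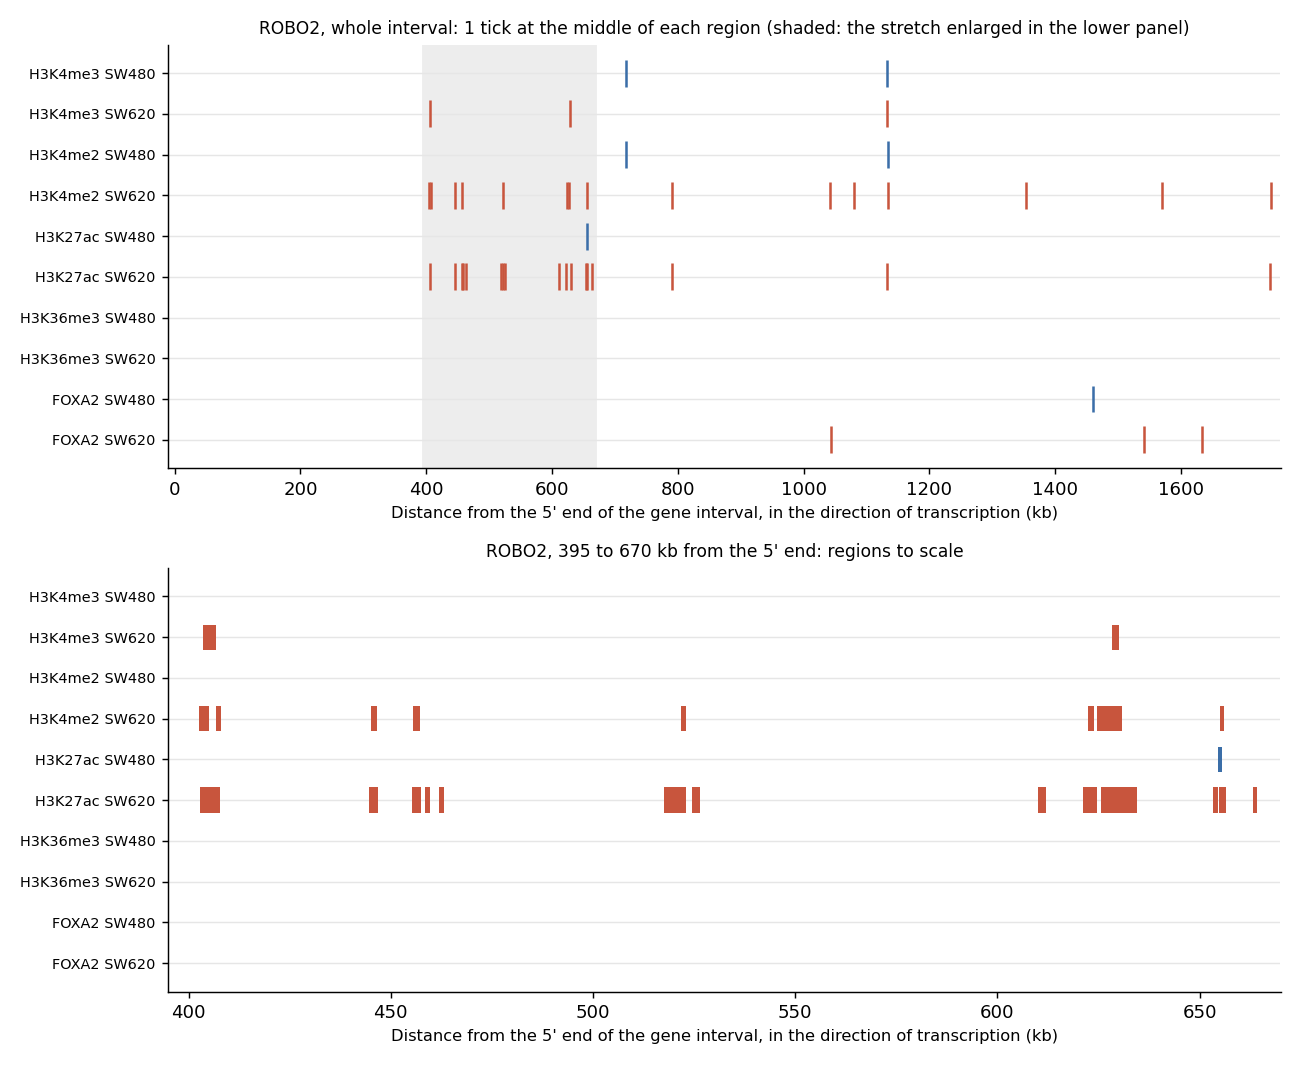
Regions at ROBO2 by antibody and line (rows, SW480 in blue and SW620 in red) against distance from the 5′ end of the gene interval in kb, as 1 tick per region over the whole gene (top) and to scale in the shaded stretch (bottom). Promoter marks of both lines meet near 1133 kb, the SW620 acetylation lies mostly between 402.8 and 664.2 kb, and the H3K36me3 rows are empty.

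SW620 had 3 FOXA2 peaks at ROBO2, from 76998552 to 76998870, from 77497377 to 77497695 and from 77588859 to 77589177. The first stood on an H3K4me2 region of SW620 from 76998072 to 76999072 and the others on no histone region. On H3K27ac were 0 of 3, where 33.9% of the whole list was, and a count of 3 peaks is too small to set apart from that share. With equal numbers of peaks from both lines, SW620 had 0 at ROBO2. SW480 had 1 peak, from 77415884 to 77416010, on no histone region of either line. It had no SW620 peak over it, as for 95.5% of the SW480 FOXA2 list. None of the 14 acetylated ROBO2 regions without H3K4me3 held a FOXA2 peak, where 27.9% of the whole class did. The difference from ROBO1, with 3 of 17, was not tested.

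The genes thus differed in what accompanied their acetylation in SW620. ROBO1 had 29 separate H3K36me3 regions between its marked promoter and its 3′ end, 20 of them with their middle in bin 10. ROBO2 had none, although its common promoter carried H3K4me3, H3K4me2 and H3K27ac. SW620-only H3K36me3 regions entered the choice of the locus. Over the whole SW620 list, H3K36me3 had 15.1 regions per Mb, against 22.8 at ROBO1 and 0 at ROBO2. For SW480 the whole list had 17.5 per Mb, and both genes had 0. The deposited files hold 1 library per group, so the difference between the genes has no replicate check.

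The members all lay inside the gene intervals, and the 50 kb flanks held none. The nearest H3K4me2 region outside the flank of ROBO2 lay 55.6 kb before its 5′ end in SW480 and 55.7 kb in SW620. On the 3′ side, the nearest SW620 H3K4me2 and H3K27ac regions lay 107 and 175 kb from the end of the ROBO2 interval. For ROBO1 the nearest region beyond a flank was an SW480 FOXA2 peak, 80.9 kb from the 5′ end.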

How the data were processed

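Enriched regions of 10 antibody libraries from SW480 and SW620 were analysed, with 1 library per line and antibody. The sample titles gave the groups. The 2 input libraries entered the calling only. Per the file headers, the authors ran HOMER findPeaks per library, with that line's input as background and a false discovery rate of 0.001. The histone style used a region size of 1000 bp and minimum enrichments of 4 over input and local background, and the FOXA2 peaks used 2. Positions refer to hg19, the build named in the submitters' processing notes. For the aligner and the HOMER version, the name or number was not given in the sources used here. The deposited score column holds 1 in every row and entered no result. The other deposited values are start and end positions in bp.

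Starts were counted from 1. A region that overlapped any region of the same antibody in the opposite line (minimum 1 bp) was shared, and otherwise line-only. Regions were joined into elements within 1 kb, and bins, clusters, promoter composition and spacing were added after the data were seen. Densities refer to the stretch of each chromosome that the lists span. Python 3.11.15, numpy 2.4.6, pandas 2.3.3, scipy 1.17.1 and matplotlib 3.10.9 were used, and the overlap functions were tested on regions with known answers. Named regions were every H3K4me3 region, the 5 widest H3K27ac and H3K4me2 regions without H3K4me3 per gene and line, the 3 widest H3K36me3 regions, the FOXA2 peaks and the 5 elements per gene with the most H3K27ac; a few others were chosen after their values were seen. The members, lists and rules were chosen with earlier results of these data known. Gene intervals were those of the selection rule. RefSeq sequences are on GRCh38 and no coordinate was converted. SLIT ligands, other ROBO receptors and intracellular partners were not analysed here, because no hg19 positions of them were used. With 1 library per group no test was made. Alternatives varied the flank, the overlap rule, the joining distance and the list length.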

Additional observations from a re-analysis of the deposited data

How the results depend on the processing

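Of 125 values recomputed under another setting, 112 stayed within 1.5 times the reported value and 13 did not. Not all of them could change: the 20 values without a flank were fixed, because all members lay inside the gene intervals. No paired analysis was possible because each group had 1 library. For equal numbers of regions from both lines, the longer list of each antibody was cut to the length of the shorter. Histone regions were ranked by width, so that those of minimum width were cut first, and FOXA2 peaks by their order in the list. The SW620 lists of H3K27ac, H3K36me3 and H3K4me3 were the shorter ones, so their counts could not change. The SW620 H3K4me2 list was cut, and then had 12 regions at ROBO1 and 10 at ROBO2. Under that setting SW480 had 1 H3K4me3 and 0 H3K27ac regions at ROBO2, and SW620 had 2 FOXA2 peaks at ROBO1 and 0 at ROBO2. The first SW620 peak of ROBO2 stood at place 5285 of its list, and 5207 were kept. When 50% overlap of both regions was required, 1 SW480 H3K27ac region at ROBO2 and 1 SW480 H3K4me2 region at ROBO1 became SW480-only. A flank of 100 kb added 1 SW480 FOXA2 peak at ROBO1. Joined within 3 kb, ROBO1 had 9 elements, 8 of them with no mark in SW480. The distances for clusters were chosen after the data were seen. Joined within 5 kb, ROBO1 had 5 H3K27ac clusters, the longest of 27 kb, and the longest at ROBO2 was 13.5 kb. Joined within 25 kb, the longest at ROBO2 was 54.2 kb. Counts this small, and calls without signal per region, limit what the lists can show.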

Other observations

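The 847 kb between the genes, from 77749116 to 78596387 and outside both flanks, held no SW480 region of any of the 5 antibodies. In SW620 it held 4 H3K4me2 regions covering 4.79 kb, 1 H3K27ac region of 1.00 kb and 2 FOXA2 peaks, and no H3K4me3 or H3K36me3. Of the 34 SW620-only H3K27ac regions in the window from 75 to 80 Mb, 32 belonged to ROBO1 or ROBO2, as did 31 of 37 for H3K4me2 and 29 of 30 for H3K36me3. Of the 17 SW620 FOXA2 peaks of that window, 8 did. With the flanks, ROBO2 takes up 1.84 Mb of the window and ROBO1 1.27 Mb. The SW620-only regions of the histone marks named here selected the window, so nothing is read from their counts.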
